A study of Mus musculus with 32 samples.

Results

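The rows described here are the 53 rows of the deposited count table, of 55487 in all, that lie on mouse chromosome 4 from position 41809083 (the start of the first row) up to position 43000000 of the GRCm38 build, a duplicated stretch that holds several copies of the chemokine gene Ccl21. The rows were taken by position, but the stretch itself was picked with earlier results of these data known. The stretch ends 4.35 Mb before the start of Tgfbr1 (chr4:47353222-47414931), 1 of the 2 genes targeted in the study. By transcript sequence the rows fell into 15 copies of a repeat named here after its member Gm3892, 5 Ccl21 copies, 5 Ccl27 copies, 4 Ccl19 copies, 4 Fam205a genes, 3 copies of 4930578G10Rik, 2 Il11ra copies, 2 copies of Gm21955 and 7 genes without a close copy. A further 6 rows have no transcript in the GENCODE M21 annotation and could not be placed by sequence. That annotation labels rows of the repeat variously as pseudogenes, protein-coding genes, antisense transcripts or a processed transcript.

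Gene expression was measured by sequencing polyA RNA from whole gastrocnemius medialis and whole soleus of 16 mice, 4 of each genotype, giving 32 libraries in 8 groups of 4. The genotypes were control, Acvr1b KO, Tgfbr1 KO and a double KO of both genes. Genes were deleted in muscle fibres alone by tamoxifen given to mice of 6 weeks, and the muscles were collected 3 months after that. Which promoter drove the recombinase, which alleles the control mice carried and whether they received tamoxifen were not given in the sources used here. Mice labelled Tgfbr1 KO or double KO are called carriers below, and control and Acvr1b KO mice non-carriers. All 4 double KO mice have animal numbers apart from those of the other 12. The 4 control mice have numbers above all those of the Acvr1b KO and Tgfbr1 KO mice. In comparisons with double KO or control mice, a difference in cohort and the genotype cannot be told apart. Whether the mice of different genotypes were littermates was not given.

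Total counts ran from 16535498 to 54456977 per library. Expression of Acvr1b, the activin receptor, was 97.6 ± 8.05 CPM (counts of a row scaled to the library's total, SD, n = 4) in control gastrocnemius and 23.6 ± 1.69 in Acvr1b KO gastrocnemius. Expression of Tgfbr1, the type I TGF-beta receptor, was 26.2 ± 6.56 CPM in control, 27.1 ± 3.26 in Tgfbr1 KO and 44.3 ± 7.32 in double KO gastrocnemius. A count over the whole gene does not show the loss of a part of it, and muscle contains cells that were not targeted, so these Tgfbr1 values do not check the label. A few libraries stood apart. Control gastrocnemius replicate 1 had 25.99% mitochondrial counts, where the other gastrocnemius libraries had 10.4 to 19.3%. The Tgfbr1 KO gastrocnemius replicate 1 had the lowest total. Double KO replicate 1 correlated least with the rest of its group in both muscles (median r of 0.988 in gastrocnemius and 0.955 in soleus), and in soleus its Tgfbr1 level was 57.6 CPM against 15.7 to 18.6 CPM in the other 3. Counts of called rows and the leading levels are also given without these 4 libraries. Nothing beyond the animal numbers says how the mice were bred, and p-values measure the spread between these mice.

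Ccl21 and Ccl19 are chemokines made mainly by lymphatic endothelium and by stromal cells of lymph nodes, and they draw dendritic cells and T cells through the receptor CCR7. Laboratory mice carry several near-identical Ccl21 genes, of which Ccl21a is the copy used in lymphoid organs and Ccl21b that of lymphatic vessels outside them. The same stretch holds copies of Ccl27, a skin chemokine that acts through CCR10, and of Il11ra, the receptor for interleukin 11. The number of copies in this stretch is known to differ between mouse strains.

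The sequences show why rows of this stretch cannot be read separately. Between Ccl21a and Ccl21b the 402 coding bases differ at 2 positions, T84A and C194T (Ccl21a base, position from the first coding base, Ccl21b base). Bases 61 to 220 of the coding sequence are printed with both positions in capitals, since a read within the coding sequence that covers neither matches every copy equally well. The coding sequences of Gm21541, Gm13304 and Gm10591 were identical to that of Ccl21b.
Ccl21a: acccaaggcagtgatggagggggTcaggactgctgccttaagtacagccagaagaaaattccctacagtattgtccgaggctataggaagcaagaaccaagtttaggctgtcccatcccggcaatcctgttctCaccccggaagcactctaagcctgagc
Ccl21b: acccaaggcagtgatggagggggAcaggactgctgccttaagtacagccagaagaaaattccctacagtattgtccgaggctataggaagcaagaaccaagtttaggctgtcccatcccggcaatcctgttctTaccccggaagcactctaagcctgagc

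The transcripts of the Gm3892 repeat family were 97.3 to 100% identical over their aligned stretches. Of these, 4 copies are printed over 120 aligned bases, because rows of this family carry many of the differences reported below, with the bases that differ from Gm17081 in capitals. The stretch was picked as the one where these copies are most alike, so other stretches can differ more. Counted from the first printed base, Gm5859 has G5A and C112T, Gm13301 has T16G, and Gm3892 is identical to Gm17081 here. All transcript sequences are those of GENCODE M21 on GRCm38.
Gm17081: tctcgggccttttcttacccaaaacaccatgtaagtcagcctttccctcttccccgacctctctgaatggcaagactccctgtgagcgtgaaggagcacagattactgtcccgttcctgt
Gm5859: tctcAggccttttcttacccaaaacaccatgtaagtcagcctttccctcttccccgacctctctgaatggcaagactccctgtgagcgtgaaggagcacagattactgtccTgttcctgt
Gm13301: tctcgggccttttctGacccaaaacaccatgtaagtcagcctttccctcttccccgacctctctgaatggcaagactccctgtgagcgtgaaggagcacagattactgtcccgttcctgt
Gm3892: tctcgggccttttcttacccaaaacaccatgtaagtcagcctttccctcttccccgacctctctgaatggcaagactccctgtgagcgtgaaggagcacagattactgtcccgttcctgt

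The repeat family was present in the muscle of every non-carrier and close to absent in every carrier. In the deposited table each place that a read matched received an equal fraction of it, so the family was first taken as a whole, as the summed CPM of its 15 rows. In gastrocnemius the 4 control libraries gave 7.49, 8.54, 7.21 and 6.51 CPM and the 4 Acvr1b KO libraries 4.73, 5.85, 3.18 and 6.08 CPM. The 4 Tgfbr1 KO libraries gave 0.231, 0.209, 0.198 and 0.179 CPM and the 4 double KO libraries 0.167, 0.1099, 0.115 and 0.0940 CPM. The groups did not overlap: the highest carrier lay below the lowest non-carrier by more than the whole range of the carriers. The mean was 6.20 ± 1.68 CPM (SD, n = 8) in non-carriers and 0.163 ± 0.0510 in carriers, a 38.05-fold difference (39.9-fold without the libraries that stood apart).

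Soleus showed the same separation. The control libraries gave 8.58, 4.52, 3.35 and 6.24 CPM, the Acvr1b KO libraries 7.13, 4.83, 2.46 and 4.25, the Tgfbr1 KO libraries 0.235, 0.384, 0.333 and 0.422, and the double KO libraries 0.188, 0.193, 0.104 and 0.409 CPM. Means were 5.17 ± 2.02 CPM in non-carriers and 0.284 ± 0.119 in carriers, 18.2-fold apart, again without overlap (17.4-fold without double KO replicate 1). Among the 8 non-carrier mice the level in gastrocnemius did not track that in soleus (Pearson r = 0.29, exact permutation p = 0.49, Spearman rho = 0.24, exact permutation p = 0.58, r = -0.01 without the 2 mice farthest from the median).

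**Figure D1:**
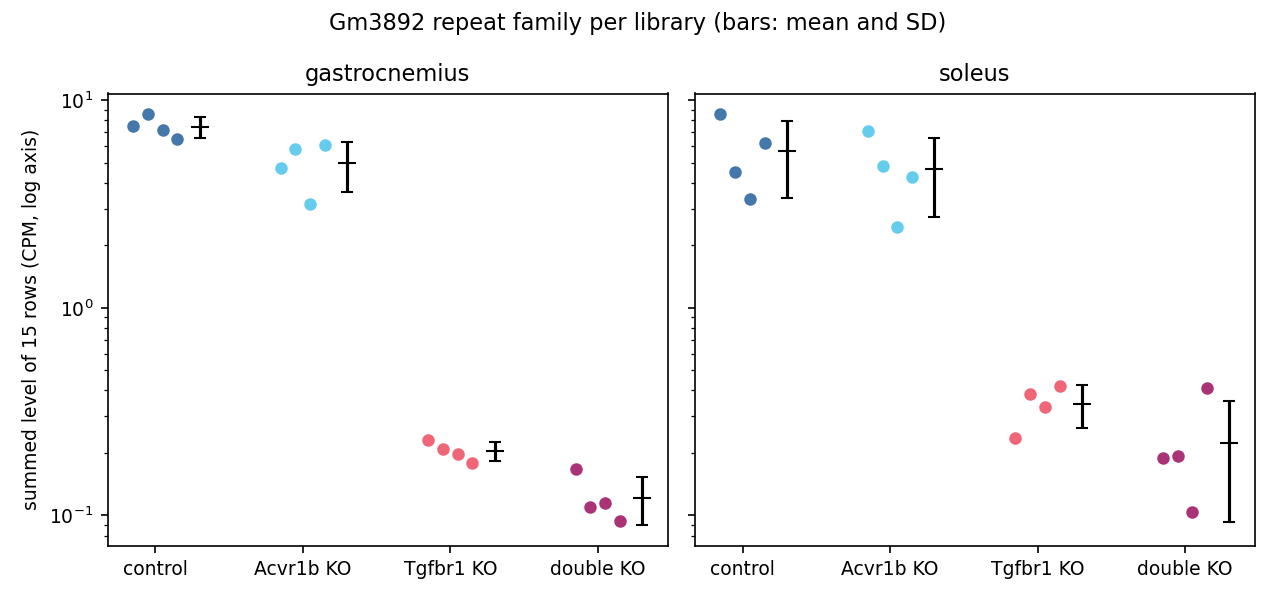
Summed level of the 15 rows of the Gm3892 repeat family (CPM, log axis) in each library by genotype, with the mean and SD of each group beside its points. In both muscles the 8 carrier libraries (Tgfbr1 KO and double KO) sit at or below 0.422 CPM and the 8 non-carrier libraries at or above 2.46 CPM.

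The row with the highest level of the family was Gm17081 (chr4:42239725-42242073), an unprocessed pseudogene. Its estimated count was 46.4, 51.7, 33.6 and 43.7 in the control gastrocnemius libraries and 25.02, 32.5, 19.2 and 36.2 in those of Acvr1b KO. In Tgfbr1 KO gastrocnemius it was 0.20, 0.80, 0.40 and 0.40, and in double KO 0.70, 0.10, 0.10 and 0.00. No carrier library of gastrocnemius reached a whole read, while the lowest non-carrier library held 19.2. In soleus its counts ran from 14.5 to 48.6 in non-carriers and from 0.30 to 1.04 in carriers. Summed over 8 libraries, Gm17081 held 288.2 counts in non-carriers and 2.70 in carriers of gastrocnemius, a ratio, after scaling to the library totals, of 106 (exact 95% interval 32.2 to 463, which covers counting error only and treats shared reads as whole reads). In soleus the ratio was 49.5 (20.6 to 152).

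Other rows behaved alike. In gastrocnemius, in 14 of the 15 rows of the family all 8 carrier libraries lay below all 8 non-carrier libraries, as did 5 of the 6 rows without a GENCODE M21 transcript, Fam205a4 and Dnajb5. That makes 21 of the 53 rows, tested or not. Of the 28 rows tested 16 had such a separation, where 0.279% of all genes tested did, these rows included. The filter behind the tests, which repeat rows passed through their non-carrier libraries, is described below. In soleus it held for 13 rows of the family, 4 of the 6 rows without a transcript, and Fam205a4, Fam205a3 and Fam205a2. That is 20 of 53 rows, and 10 of the 23 rows tested, against 0.116% of all genes tested. The exceptions in the family were Gm10600, with no count in any library, and, in soleus, Gm12394, at 0.169 to 0.554 CPM in non-carriers and 0.0211 to 0.178 CPM in carriers. Since near-identical rows share reads, these counts of rows are not counts of independent genes. Among the rows without a transcript, ENSMUSG00000118458 (chr4:42242630-42244913) lies next to Gm17081 and held 273.5 counts in non-carriers and 2.70 in carriers of gastrocnemius.

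Differences between groups were tested with edgeR's quasi-likelihood test on all genes of a muscle, with Benjamini-Hochberg adjustment and rows were called at an adjusted p under 0.05. After a filter on low counts 28 of the 53 rows could be tested in gastrocnemius and 23 in soleus. Rows of the repeat family passed that filter through their non-carrier libraries, so the number called among those tested describes them and supports nothing further. For carriers against non-carriers 20 of 28 rows were lower in gastrocnemius and none higher, where 5% of all 17536 genes tested were called lower and 10.8% in either direction. In soleus 11 of 23 rows were lower and none higher, against 0.187% of 18143 genes called lower and 0.215% in either direction, these rows included. All 11 rows called in soleus were also called in gastrocnemius. The median log2 difference was -4.10 over the rows tested in gastrocnemius and -0.44 in soleus, and 0.00 and 0.01 over all genes tested. Without the 4 libraries that stood apart 23 and 14 rows were called, and DESeq2 called 24 and 18.

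All 11 repeat family rows tested in gastrocnemius fell, with fitted log2 differences between -7.08 and -4.10 and adjusted p between 5.19e-08 and 1.96e-05. In soleus all 8 fell, by -6.89 to -2.23, with adjusted p between 1.47e-05 and 0.00599. Gm17081 changed by -6.55 ± 0.38 (log2, SE, adjusted p = 5.19e-08) in gastrocnemius and by -5.73 ± 0.46 (adjusted p = 1.47e-05) in soleus. ENSMUSG00000118458 changed by -7.24 ± 0.39 (adjusted p = 1.92e-07) and -5.95 ± 0.48 (adjusted p = 1.47e-05). With carriers this close to 0 a fitted log2 difference depends on the small count that the fit adds, and the ratios of summed counts above do not. Over the family these ratios ran from 11.5 to 150 in gastrocnemius and from 4.23 to 86.3 in soleus in the 14 rows with counts. The smallest ratio was that of Gm10601 in gastrocnemius and of Gm12394 in soleus.

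**Figure D2:**
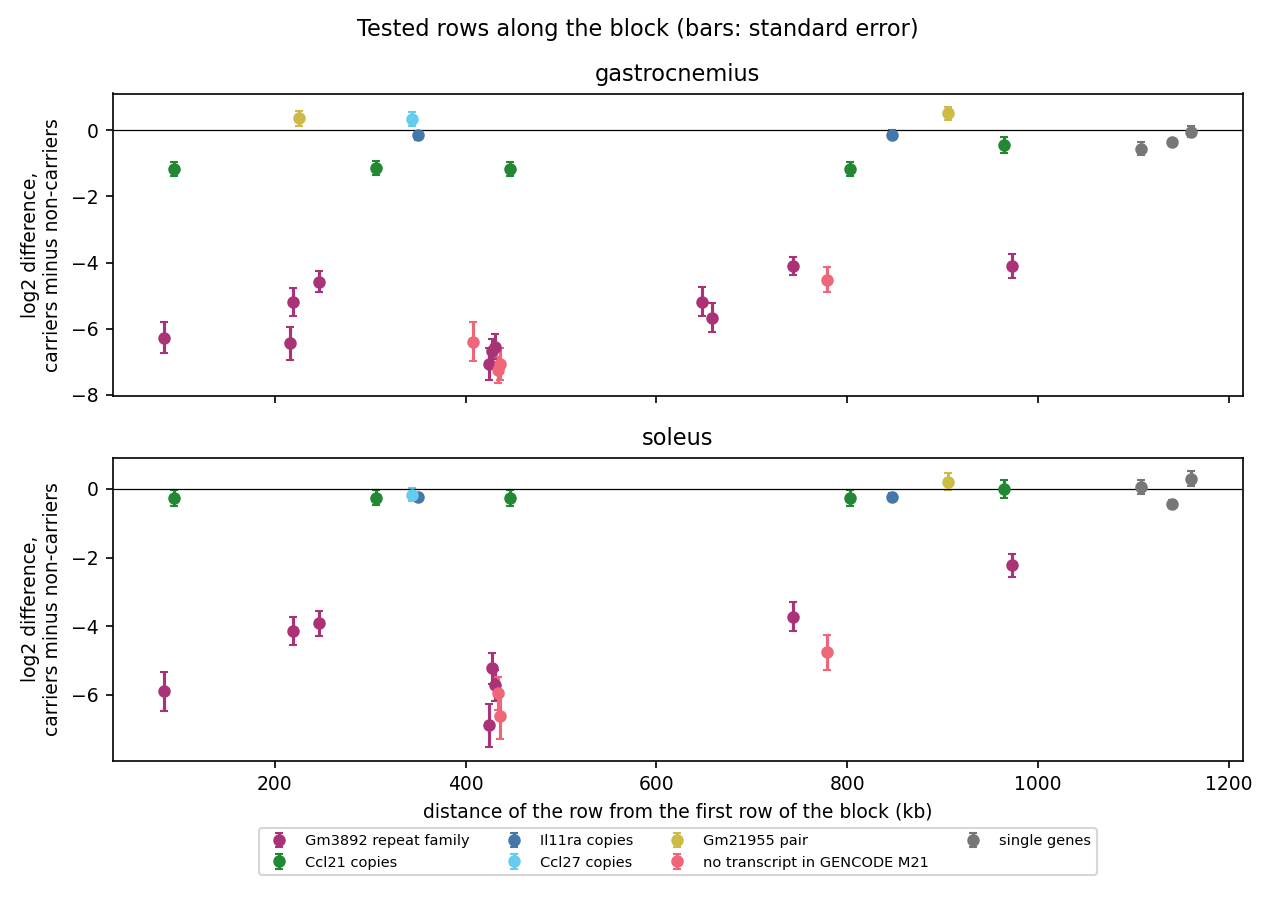
Fitted log2 difference of carriers minus non-carriers with its standard error for each tested row, by the row's distance in kb from the first row of the stretch, 1 panel for each muscle. Rows of the Gm3892 repeat family lie at -2.23 or lower along the whole stretch and alternate with Ccl21, Ccl27, Il11ra and Gm21955 copies, which lie between -1.18 and 0.51.

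The 2 comparisons that contrast different libraries both called rows lower only, most of them shared. Both came from a fit on all libraries of the muscle, with the same filter, scaling and estimate of spread. They are therefore not independent. Tgfbr1 KO against control called 19 rows in gastrocnemius, all lower. Over all genes tested it called 27 lower (0.154%) and 30 in either direction (0.171%), these rows included. Double KO against Acvr1b KO called 16 rows, all lower (7.06% and 16.3% of all genes). The 2 comparisons had 15 rows in common, of the 19 and of the 16. The 4 called only in the first were the Ccl21 copies Gm21541, Gm13304, Ccl21b and Gm10591, and the only row of the second alone was Dnajb5. Summed over the family, the level was 7.44 ± 0.843 CPM in control and 0.204 ± 0.0218 in Tgfbr1 KO, and 4.96 ± 1.33 in Acvr1b KO and 0.121 ± 0.0317 in double KO (SD, n = 4 each). A fit on the 2 compared groups alone called 6 rows in double KO against Acvr1b KO, all lower.

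In soleus Tgfbr1 KO against control called 9 rows, all lower. These were the only genes called of the 18143 tested (0.0496%). Double KO against Acvr1b KO called 10 rows, all lower, and 9 were shared with the first comparison. Over all genes it called 0.0882% lower and 0.127% in either direction, these rows included. The family's summed level was 5.67 ± 2.27 CPM in control, 0.344 ± 0.0810 in Tgfbr1 KO, 4.67 ± 1.93 in Acvr1b KO and 0.224 ± 0.130 in double KO. The counts of rows called in soleus rest on few libraries. The first comparison called 4 rows without Tgfbr1 KO replicate 4, 5 without control replicate 1 or 4 or Tgfbr1 KO replicate 1, 2 or 3, and 3 in a fit on its 2 groups alone. The second called 6 rows without Acvr1b KO replicate 1 or double KO replicate 1, 2 or 3, and 0 in a fit on its 2 groups alone. In each of these settings the direction of every called row stayed lower.

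With edgeR, Acvr1b KO against control called 0 rows in gastrocnemius (0.0285% of all genes) and 0 in soleus (0.022%), as it did with DESeq2. At an unadjusted p under 0.05 it had 10 of 28 rows in gastrocnemius, where 775 of all 17536 genes had such a p, and 0 of 23 in soleus, where 353 of 18143 did. Repeat family rows had log2 differences between -0.75 and -0.27 in that gastrocnemius comparison, with adjusted p of at least 0.93. Double KO against Tgfbr1 KO called 1 row in gastrocnemius, Dnajb5 (12.9% of all genes called), and 0 in soleus (0.0496%), where 2 of 23 rows and 1656 of all 18143 genes had an unadjusted p under 0.05. The departure from additivity of the 2 knockouts called 0 rows in gastrocnemius (2.14% of all genes) and 0 in soleus (0%). At an unadjusted p under 0.05 it had 6 of 28 rows in gastrocnemius, against 2609 of all 17536 genes, and 1 of 23 in soleus, against 614 of 18143. Rows that share reads are counted more than once in these numbers. DESeq2 also called 0 rows for additivity in both muscles and for double KO against Tgfbr1 KO in soleus.

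The carrier difference was also compared between muscles in a fit on all 32 libraries, which treats the gastrocnemius and soleus of a mouse as separate samples. It called 0 of 28 rows (0.155% of all genes), with 6 rows and 1148 of all 18726 genes at an unadjusted p under 0.05. With the mouse as a replicate block it also called 0 rows (0.475% of all genes), with 6 rows and 1600 genes at such a p and a lowest adjusted p of 0.13 among the rows. For the Ccl21 copies the log2 difference of carriers in soleus minus that in gastrocnemius ran from 0.44 (Ccl21a) to 0.92 (Gm10591), with adjusted p of at least 0.39.

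The Fam205a genes, which code for proteins of little-known function and share 78.7 to 94.3% identity with the repeat family over aligned stretches, were too low to be tested. Their summed level in gastrocnemius was 0.363 ± 0.0549 CPM in non-carriers and 0.161 ± 0.0876 in carriers, with ranges of 0.288 to 0.445 and 0.0843 to 0.330 that overlapped. In soleus it was 0.493 ± 0.137 and 0.169 ± 0.0866 CPM, with ranges of 0.378 to 0.808 and 0.0598 to 0.285 that did not. For Fam205a4 the ratio of summed counts was 2.82 (1.36 to 7.18) in gastrocnemius and 2.93 (1.53 to 6.41) in soleus. Fam205a2, Fam205a3 and Fam205a1 had ratios of 2.05 to 2.67 in gastrocnemius and 2.94 to 3.05 in soleus. Fam205c had 2.00 counts in each arm of gastrocnemius.

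The Ccl21 rows did not fall like the repeat family. Gm21541, Gm13304, Ccl21b and Gm10591 held nearly the same value in each library, within 2.00 estimated counts of each other in all and identical in every carrier library of gastrocnemius, so they are 1 measurement and not 4. For Ccl21b (chr4:42255693-42256825) the control gastrocnemius libraries gave 0.616, 0.831, 1.01 and 0.624 CPM and the Acvr1b KO libraries 0.649, 0.698, 0.440 and 0.509. The Tgfbr1 KO libraries gave 0.182, 0.314, 0.283 and 0.185 CPM and the double KO libraries 0.541, 0.306, 0.315 and 0.244. Carriers were lower, but the groups overlapped through double KO replicate 1. Ccl21b fell by 1.17 ± 0.20 (log2, SE, adjusted p = 0.00145) in carriers against non-carriers, by 1.63 ± 0.29 (adjusted p = 0.0273) in Tgfbr1 KO against control, and was at -0.71 ± 0.28 (adjusted p = 0.0976) in double KO against Acvr1b KO. The call in Tgfbr1 KO against control rested on single libraries: it was lost without control replicate 2 or 3, without any 1 of the Tgfbr1 KO replicates and in a fit on those 2 groups alone (adjusted p of up to 0.19). In double KO against Acvr1b KO the row passed without double KO replicate 1 and without all libraries that stood apart.

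In soleus Ccl21b was 0.455 to 1.03 CPM (median 0.809) in non-carriers and 0.380 to 1.11 (median 0.641) in carriers, with a log2 difference of -0.27 ± 0.22 (adjusted p = 0.77). The ranges covered each other. Ccl21a (chr4:42772860-42773993), the copy on the minus strand at the far end of the stretch, was 0.578 to 1.44 CPM (median 0.914) in non-carriers and 0.369 to 1.13 (median 0.604) in carriers of gastrocnemius, with a log2 difference of -0.44 ± 0.23 (adjusted p = 0.25). In soleus it was 0.805 to 2.40 CPM (median 1.46) and 0.764 to 2.58 (median 1.51), with a difference of -0.01 ± 0.27 (adjusted p = 0.996). Neither muscle showed a change in Ccl21a past the threshold.

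Because reads that match all copies add the same fraction to each row, the rows were also set against each other within a library. The mean of the 4 Ccl21b-like rows, as a percentage of the Ccl21a row, was 81.5% (71.2 to 96.3) in the 4 control and 70.3% (54.3 to 88.4) in the 4 Acvr1b KO libraries of gastrocnemius. It was 43.9% (36.8 to 49.2) in Tgfbr1 KO and 46.2% (41.7 to 49.3) in double KO. Non-carriers ran from 54.3 to 96.3% and carriers from 36.8 to 49.3%, without overlap, a difference of -30.8 percentage points (exact permutation test, two-sided p = 0.000155, the smallest that 12870 assignments of 8 against 8 can give, adjusted p = 0.000622 over 4 tests). The direction was the same in both pairs of genotypes. In soleus the percentage was 53.4 ± 10.5% in non-carriers and 43.8 ± 5.24% in carriers (exact permutation p = 0.0228, adjusted 0.0457), with overlap. Without the libraries that stood apart the exact permutation p was 0.00117 in gastrocnemius and 0.0312 in soleus.

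The level of Ccl21a in excess of these rows was 0.241 ± 0.178 CPM in non-carriers and 0.365 ± 0.141 in carriers of gastrocnemius (exact permutation p = 0.14, adjusted 0.19). In soleus it was 0.755 ± 0.381 and 0.870 ± 0.388 CPM (exact permutation p = 0.55, adjusted 0.55). A read shared by all copies cancels in this excess, and its difference between carriers and non-carriers was not larger than the spread between mice.

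**Figure D3:**
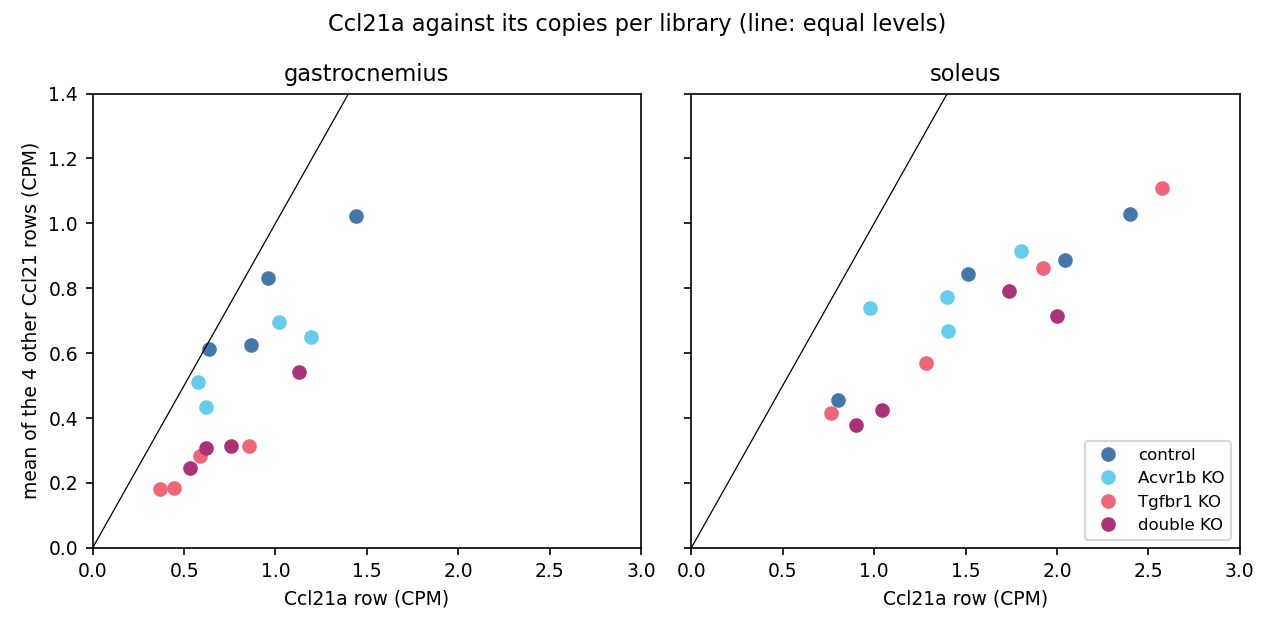
Mean level of the 4 Ccl21b-like rows (vertical axis, CPM) against the level of Ccl21a (horizontal axis, CPM) in each library, coloured by genotype, with a line where both are equal (the axes differ in scale). In gastrocnemius the copies stand at 54.3 to 96.3% of Ccl21a in non-carriers and at 36.8 to 49.3% in carriers, and in soleus at 42.9 to 75.7% and 35.6 to 54.2%, with overlap.

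Of the other genes of the CCR7 axis, Ccl19 (chr4:42754525-42756577) was at or below 0.141 CPM in every library and too low to be tested, with 17.9 counts summed over non-carriers and 10.2 over carriers of gastrocnemius, a ratio of 1.74 (0.780 to 4.32), and 22.7 and 15.3 counts in soleus. The receptor Ccr7 was also too low. Ackr4, a scavenger receptor for these chemokines, had a log2 difference of 0.61 ± 0.29 (adjusted p = 0.20) in gastrocnemius and 0.14 ± 0.29 (adjusted p = 0.91) in soleus. Of the list's 6 genes, 4 could be tested in each muscle, Ccl21c among them, and Ccl21b and Ccl21c passed in gastrocnemius and none in soleus. Both of these rows had fractional counts in all 32 libraries, so they may share reads and are not shown to be separate measurements. Ccl21c has no row in the stretch, and its row on an unplaced scaffold is described at the end.

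Fewer cells of a type and less RNA per cell cannot be told apart in whole muscle. Of the 5 markers of lymphatic endothelium all were tested and none passed the threshold. The largest log2 difference of the 5, in either direction, was that of Pdpn. It was 0.37 ± 0.14 (adjusted p = 0.10) in gastrocnemius and 0.55 ± 0.23 (adjusted p = 0.56) in soleus. The summed level of the 5 was 15.1 to 22.5 CPM in non-carriers and 14.5 to 23.8 in carriers of gastrocnemius. In soleus it was 26.1 to 44.8 and 36.2 to 47.4 CPM. Of the B cell and lymph node markers 1 of 5 could be tested and did not pass, with sums of 0.229 to 0.937 and 0.163 to 0.894 CPM in gastrocnemius and of 0.407 to 1.43 and 0.496 to 2.02 CPM in soleus. None of the 5 T cell markers could be tested, with sums of at most 0.508 CPM. Dendritic cell markers summed to 5.85 to 8.64 and 5.79 to 7.93 CPM in gastrocnemius and to 3.26 to 5.16 and 3.99 to 11.5 CPM in soleus, and none of the 3 tested passed. The labelled tissue was clear from 7 muscle fibre genes, Acta1 and Ckm among them, which summed to 110415 to 133795 CPM in non-carriers and 96703.5 to 123252 in carriers of gastrocnemius, where 4 of the 7 were lower in carriers (the myosins Myh2, Myh4 and Myh7, and Mb, the oxygen store myoglobin). In soleus they summed to 63620.1 to 75012.8 and 43185.3 to 78874.3 CPM, and none of the 7 passed. The part of any of these cells in the Ccl21 values was not tested.

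None of the Ccl27 and Il11ra copies that could be tested passed the threshold. Ccl27b (chr4:42655251-42655998) summed to 33.97 counts in non-carriers and 38.01 in carriers of gastrocnemius and to 45.3 and 43.0 in soleus, with ratios of 0.885 (0.541 to 1.44) and 1.09 (0.699 to 1.69). Its copy Gm13306 had log2 differences of 0.35 ± 0.21 (adjusted p = 0.32) and -0.16 ± 0.20 (adjusted p = 0.84). Outside the stretch, Ccl27a and Ccl28, further ligands of CCR10, could be tested and neither passed in either muscle, and Ccr10 was too low. Ccl27a was 99.3% identical to Ccl27b over 425 bases, so it may share reads with the copies in the stretch.

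Il11ra2 (chr4:42656001-42665763) codes for an interleukin 11 receptor alpha chain, and its 1299 transcript bases were identical to a part of Gm13305 and 99.0% identical to Il11ra1 outside the stretch. In gastrocnemius the level of Il11ra2 was 2.91 ± 0.930 CPM in control and 2.87 ± 0.122 in Acvr1b KO, and it was 2.58 ± 0.416 in Tgfbr1 KO and 2.67 ± 0.0499 in double KO. Control replicate 1 lay lowest, at 1.53 CPM. In soleus the means were 7.15 ± 0.438, 7.09 ± 0.945, 6.51 ± 0.851 and 5.68 ± 0.885 CPM. The log2 differences of carriers were -0.14 ± 0.14 (adjusted p = 0.55) and -0.23 ± 0.10 (adjusted p = 0.57). It passed the threshold in gastrocnemius without control replicate 1 (adjusted p = 0.0448) or without all libraries that stood apart (adjusted p = 0.0398). Of the IL-11 list's 5 other tested genes, Il11ra1, the co-receptor Il6st, the kinase Jak1, the factor Stat3 and its feedback inhibitor Socs3, none passed in either muscle, and Il11 itself was too low.

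The long rows Gm21955 and Gm37530, 98.5% identical over 4970 bases, were not lower in carriers. Gm21955 was 0.421 to 0.689 CPM (median 0.502) in non-carriers and 0.539 to 1.35 (median 0.669) in carriers of gastrocnemius, with a log2 difference of 0.51 ± 0.19 (adjusted p = 0.094). In soleus the difference was 0.21 ± 0.24 (adjusted p = 0.83). The copies of 4930578G10Rik were too low to be tested and summed to 0.218 ± 0.0943 CPM in non-carriers and 0.232 ± 0.102 in carriers of gastrocnemius.

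At the Tgfbr1 side of the stretch lie genes without a close copy. Dnajb5 (chr4:42949814-42959425), a co-chaperone of the Hsp40 family that muscle expresses strongly, was 239, 291, 240 and 253 CPM in control gastrocnemius and 242, 251, 265 and 255 CPM in Acvr1b KO. It was 211, 214, 228 and 215 CPM in Tgfbr1 KO and 193, 174, 161 and 189 CPM in double KO. Every carrier lay below every non-carrier, and the double KO lay below the Tgfbr1 KO. Dnajb5 fell by 0.37 ± 0.05 (log2, SE, adjusted p = 0.000362) in carriers, by 0.50 ± 0.08 (adjusted p = 0.000301) in double KO against Acvr1b KO, and by 0.27 ± 0.08 (adjusted p = 0.0269) in double KO against Tgfbr1 KO. In Tgfbr1 KO against control it was at -0.24 ± 0.08 (adjusted p = 0.52). The call in double KO against Tgfbr1 KO was lost without replicate 2 or 3 of either genotype, and in a fit on those 2 groups alone.

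In soleus Dnajb5 was 176 to 247 CPM (median 199.7) in non-carriers and 94.6 to 258 (median 147) in carriers, with a log2 difference of -0.44 ± 0.12 (adjusted p = 0.26). In double KO against Acvr1b KO of soleus it was at -0.74 ± 0.17 (adjusted p = 0.13), which passed with DESeq2 and without Tgfbr1 KO replicate 3. Tgfbr1 KO replicate 3 was the highest of all soleus libraries, at 258 CPM. Phf24, a gene known from neurons, was 2.47 to 4.23 CPM (median 2.72) in non-carriers and 1.22 to 3.17 (median 1.91) in carriers of gastrocnemius, with a difference of -0.56 ± 0.19 (adjusted p = 0.076). It was 2.14 to 3.77 and 1.78 to 4.18 CPM in soleus, with 0.06 ± 0.19 (adjusted p = 0.95). Phf24 passed the threshold in gastrocnemius without double KO replicate 1 (adjusted p = 0.00702), without Tgfbr1 KO replicate 2 (adjusted p = 0.0471), without the libraries that stood apart (adjusted p = 0.0103) and with DESeq2 (adjusted p = 0.0423). The row 1700022I11Rik had -0.05 ± 0.17 (adjusted p = 0.89) and 0.30 ± 0.22 (adjusted p = 0.73).

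The rest of chromosome 4 was set beside the stretch. In gastrocnemius 7 of 36 genes tested in the 5 Mb before it were called (19.4%), 11 of 62 between its end and Tgfbr1 (17.7%), 9 of 22 from Tgfbr1 to 5 Mb past it (40.9%) and 101 of 917 on the rest of the chromosome, against 71.4% in the stretch and 10.6% on other chromosomes. In soleus the numbers were 0 of 36, 1 of 65 (1.54%) and 2 of 22 (9.09%), and 0.211% on the rest of the chromosome, against 47.8% in the stretch and 0.123% on other chromosomes. Since rows of the stretch passed the filter on low counts through their non-carrier libraries, the shares were also taken without it: 23 of 52 rows of the stretch (44.2%) and 4.54% of genes on other chromosomes were called in gastrocnemius, and 18 of 51 (35.3%) and 0.0603% in soleus. With the filter, the median log2 difference of each of these windows outside the stretch lay between -0.08 and 0.03. Neighbouring genes were both higher and lower.

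Invs, a gene of the primary cilium 0.927 Mb past the start of Tgfbr1, was higher in carriers. In gastrocnemius it was 1.62 ± 0.318 CPM (SD, n = 8) in non-carriers and 4.25 ± 0.580 in carriers, a log2 difference of 1.39 ± 0.12 (adjusted p = 1.34e-06). In soleus it was 1.11 ± 0.277 and 2.64 ± 0.455 CPM, a difference of 1.24 ± 0.16 (adjusted p = 0.00189). In both muscles carriers and non-carriers did not overlap. Tdrd7, between the stretch and Tgfbr1, rose by 0.34 ± 0.06 (adjusted p = 0.00176) and 0.37 ± 0.06 (adjusted p = 0.00845), and Gm12439, past Tgfbr1, fell by 0.58 ± 0.11 (adjusted p = 0.00268) and 0.70 ± 0.10 (adjusted p = 0.00438). In Tgfbr1 KO against control of gastrocnemius Tdrd7 was at 0.14 ± 0.09 (adjusted p = 0.92) and Gm12439 at -0.43 ± 0.15 (adjusted p = 0.63). Double KO against Acvr1b KO gave 0.54 ± 0.09 (adjusted p = 0.000379) and -0.72 ± 0.15 (adjusted p = 0.00400). In soleus too, both genes passed only in double KO against Acvr1b KO (adjusted p = 0.0207 and 0.0273). Shb rose by 0.73 ± 0.09 (adjusted p = 7.12e-05) and B4galt1 fell by 0.52 ± 0.08 (adjusted p = 0.000566) in gastrocnemius. Nr4a3, past Tgfbr1, had a larger difference there than Invs, -1.75 ± 0.41 (adjusted p = 0.0114). It was 51.1 ± 39.7 CPM in non-carriers and 18.5 ± 16.4 in carriers of gastrocnemius. Aldh1b1, between the stretch and Tgfbr1, rose by 0.92 ± 0.22 (adjusted p = 0.0138) in gastrocnemius. Neither Nr4a3 nor Aldh1b1 was called in soleus. For Invs the 2 comparisons of gastrocnemius that contrast different libraries within the shared fit gave similar values. They were 1.22 ± 0.16 (adjusted p = 0.00100) in Tgfbr1 KO against control and 1.55 ± 0.16 (adjusted p = 9.50e-06) in double KO against Acvr1b KO. In soleus they gave 1.23 ± 0.23 (adjusted p = 0.12) and 1.26 ± 0.23 (adjusted p = 0.0413), the latter lost in 14 of 23 alternatives.

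**Figure D4:**
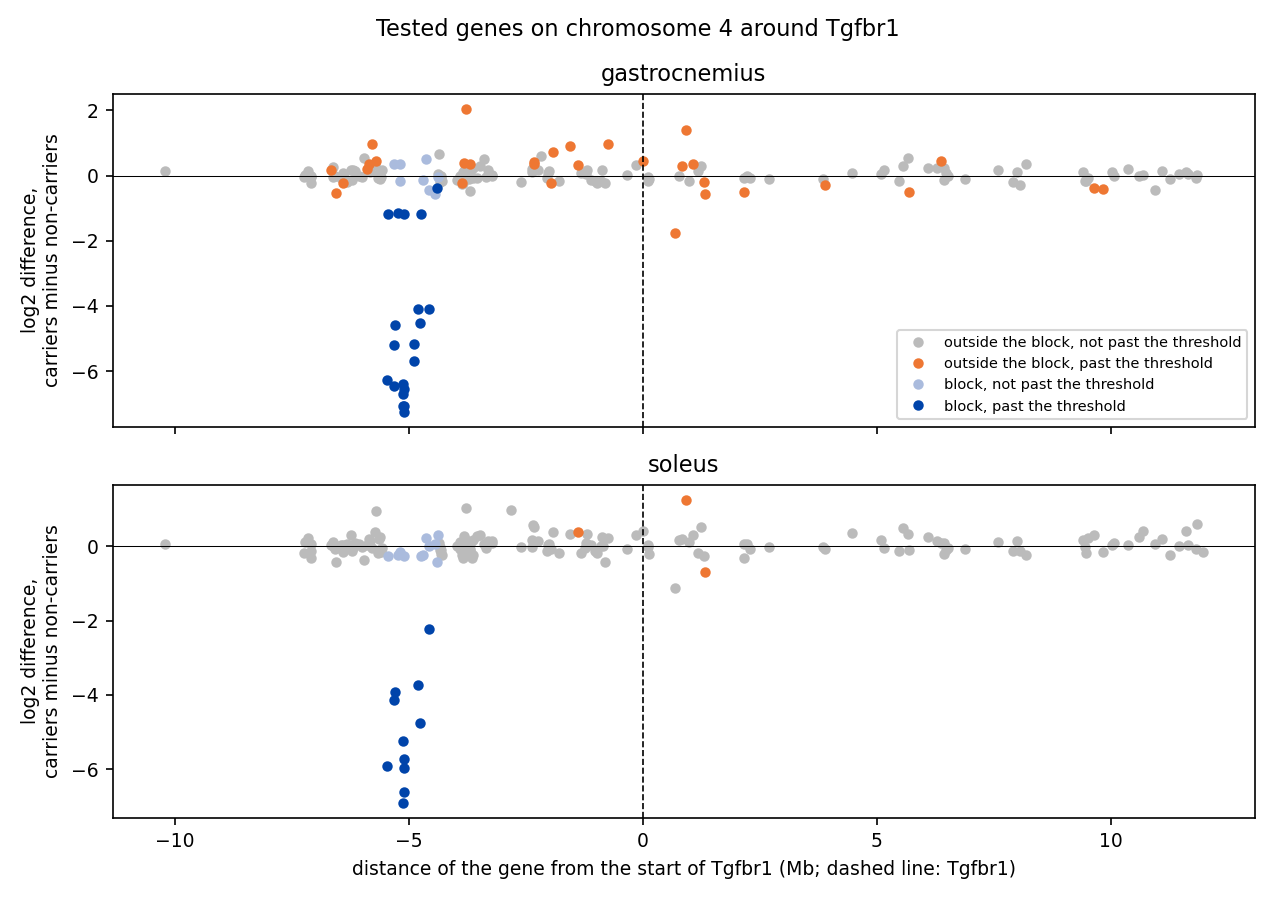
Fitted log2 difference of carriers minus non-carriers for each tested gene in a region of chromosome 4 around Tgfbr1, by its distance from the start of Tgfbr1 (Mb, dashed line at Tgfbr1), 1 panel for each muscle, with genes past the threshold and rows of the stretch coloured. Every plotted difference of -2.23 or lower belongs to the stretch, and Invs stands at 1.39 and 1.24 just past Tgfbr1.

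The count table also has rows on unplaced scaffolds of the assembly, and 8 of 18 scaffold rows tested in gastrocnemius (44.4%) and 2 of 15 in soleus (13.3%) were called, all lower. The called rows had fractional counts in at least 30 libraries, so these are not counts of independent genes. In gastrocnemius the scaffold row ENSMUSG00000096873 had the same means, SD and log2 difference as the Ccl21c row. This row and the scaffold row ENSMUSG00000096271 both carry the symbol Ccl21b, which above stands for the row on chromosome 4 alone. ENSMUSG00000096271 had a log2 difference of -1.23 ± 0.22 (adjusted p = 0.00189) in gastrocnemius and -0.30 ± 0.23 (adjusted p = 0.74) in soleus. Ccl21c (scaffold GL456350.1) was 0.353 ± 0.0958 CPM in non-carriers and 0.168 ± 0.0802 in carriers of gastrocnemius, a log2 difference of -1.03 ± 0.25 (adjusted p = 0.0127), and -0.25 ± 0.24 (adjusted p = 0.79) in soleus. The 2 scaffold rows called in both muscles, named here after their values were seen, were ENSMUSG00000079764 and ENSMUSG00000096237. ENSMUSG00000079764 was 0.293 ± 0.0936 CPM in non-carriers and 0.00579 ± 0.00455 in carriers of gastrocnemius, and 0.248 ± 0.100 and 0.00942 ± 0.00598 in soleus. ENSMUSG00000096237 was 0.545 ± 0.117 and 0.0515 ± 0.0429 CPM in gastrocnemius, and 0.519 ± 0.214 and 0.135 ± 0.0861 in soleus. In both muscles the carrier libraries of these rows lay below all non-carrier libraries. The transcript sequences of scaffold rows were not used here.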

How the data were processed

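The rows and gene lists were chosen with earlier results of these data known. PolyA RNA of whole muscle was sequenced from 32 samples, grouped by the tissue and genotype in the labels. The single table used holds estimated counts that the authors made with featureCounts 2.0.1 on Ensembl 102 gene models of GRCm38, per the file headers, on the reverse strand (setting 2), with a read that aligned to several places shared as fractions. Adapter trimming with cutadapt, alignment with HISAT2 and quality control with FastQC 0.11.9 are named in the submitters' processing notes, with build GRCm38.p6 and DESeq2. Of the 53 rows, 50 had a fractional count (over 0.005 from a whole number) in at least 1 library. No row lacked a gene name and no column of values was left out.

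Counts were rounded and fitted for each muscle on all 16 libraries with edgeR 4.0.16 (filterByExpr, TMM scaling, robust quasi-likelihood fit, R 4.3.3), and limits of depth follow from total counts of 16535498 to 54456977. The script was tested on simulated data. CPM are unrounded counts over the TMM-scaled library size. Families are transcripts with at least 95% identity over 200 bases and 50% of the shorter 1, by BLAST 2.17.0. Symbols come from GENCODE M21. Ratios of summed counts carry exact 95% binomial intervals, and a sum of at most 3 counts in non-carriers gave none. Rows past the threshold could be named, with full statistics from 1 CPM in the higher arm, a level that among rows called for carriers against non-carriers Dnajb5 alone reached. Gm17081, ENSMUSG00000118458 and Ccl21b are given in full besides. Alternatives were DESeq2 1.42.0, other scaling, no filter, unrounded counts, a replicate block, the compared groups alone and leaving out each replicate. Leaving out all libraries that stood apart was added after seeing the data.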

Additional observations from a re-analysis of the deposited data

Results flagged for a closer look

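In 152 groups of 4 libraries (19 named genes in 8 groups) the highest or lowest library was set against the other 3, and 9 were farther off than Dixon's 95% critical value allows, where chance gives about 1 in 20. Among rows of the stretch, Gm17081 was 0.0216 CPM in double KO gastrocnemius replicate 1 (0 to 0.00270 in the other 3), and Gm10593 was 0.0277 CPM there (0.0139 to 0.0157). Gm12394 was 0.140 CPM in double KO soleus replicate 4 (0.0211 to 0.0269). Il11ra2 was 1.53 CPM in control gastrocnemius replicate 1 (3.28 to 3.49), the library with 25.99% mitochondrial counts. Phf24 was 3.80 CPM in control gastrocnemius replicate 2 (2.47 to 2.58) and 3.77 CPM in control soleus replicate 1 (2.14 to 2.37). Dnajb5 was 258 CPM in Tgfbr1 KO soleus replicate 3 (152 to 170). Outside the stretch, Tdrd7 was 14.2 CPM in double KO gastrocnemius replicate 1 (15.2 to 15.35) and 7.79 CPM in Acvr1b KO soleus replicate 1 (8.04 to 8.08).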

How the results depend on the processing

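The number of rows called kept within 1.5 times of its value in most settings. A fit on the compared groups alone called 6 rows in double KO against Acvr1b KO of gastrocnemius in place of 16, 0 in place of 1 in double KO against Tgfbr1 KO, 3 in place of 9 in Tgfbr1 KO against control of soleus and 0 in place of 10 in double KO against Acvr1b KO of soleus. In soleus DESeq2 and the fit without a filter on low counts each called 18 rows for carriers in place of 11, and DESeq2 called 18 in double KO against Acvr1b KO. Without the libraries that stood apart that last comparison had 6. Without the filter 6 scaffold rows were called in soleus in place of 2. Leaving out each replicate gave 20 to 22 rows for carriers in gastrocnemius and 11 to 14 in soleus, 15 to 20 and 4 to 13 in Tgfbr1 KO against control, 16 to 22 and 6 to 14 in double KO against Acvr1b KO, and 0 to 1 in double KO against Tgfbr1 KO of gastrocnemius. The cause of these shifts was not tested. Same-numbered mice of different genotypes share only a number (median correlation of their deviations 0.02 in gastrocnemius and -0.02 in soleus, 24 pairs each), and gastrocnemius and soleus of a mouse had 0.24 (16 mice). The replicate block gave 20 rows for carriers in gastrocnemius and 11 in soleus, as without it, and 18 and 10 in Tgfbr1 KO against control. For carriers against non-carriers and the muscle difference, 1229 of 1235 values of named genes under the alternatives kept their direction and side of the threshold and 6 (Il11ra2 and Phf24 in gastrocnemius) passed it. In comparisons of 2 genotypes calls were lost for Ccl21b (7 of 23 alternatives in Tgfbr1 KO against control), Dnajb5 (5 of 23 in double KO against Tgfbr1 KO, both in gastrocnemius) and Invs (14 of 23 in double KO against Acvr1b KO of soleus). In carriers no row of the repeat family held more than 2.97 counts in a library of gastrocnemius or 7.76 in soleus, so that depth limits how near to 0 they can be placed.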
